A study of Mus musculus with 12 samples.

Results

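The map described here is the list of N6-methyladenosine (m6A) peaks in testis RNA of mice that lack Alkbh5, called from immunoprecipitated (IP) RNA against input RNA of the same genotype. All rows of the knockout (KO) list were taken, which gave 32277 peaks of 65355 in both deposited lists. The other 33078 peaks belong to the wild-type (WT) list. The groups were KO IP, KO input, WT IP and WT input, with 3 libraries each, from Alkbh5-/- and WT males at postnatal day 18 (P18). No further allele or agent is named for any group, nor how the Alkbh5 allele was made. The series speaks of spermatocytes, but the libraries are labelled as testis, so each one holds RNA of germ cells and of somatic cells. Fewer cells of a type and less RNA per cell cannot be told apart in such samples.

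m6A is a methyl mark that a complex around METTL3 and METTL14 writes on adenosines of mRNA, mostly within the consensus DRACH, and that YTH-domain proteins read. ALKBH5 and FTO remove it. In mammals the mark gathers in long internal exons and near stop codons and 3' untranslated regions (3' UTRs), and loss of Alkbh5 is known to impair spermatogenesis in mice. In this assay, a peak is a stretch of a transcript whose fragments were enriched by an m6A antibody over the input RNA, and its fold is the linear ratio of IP over input. A peak needs enough reads, so a gene without a peak may carry no mark or too few reads.

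The KO list held no peak in Alkbh5 itself, against 3 peaks in the WT list. Each list is a single set of calls per genotype. No spread between libraries could therefore be given and no difference between genotypes was tested. Depth per library is unknown. Shares carry Wilson 95% intervals, and medians carry exact binomial 95% intervals. Both cover counting error only and treat peaks or genes as independent. The authors' false discovery rate (FDR) was 1e-05 or below for 52.2% of KO peaks (16833 of 32277), and the loosest listed FDR was 0.43. Identical pairs of fold and FDR recurred: 921 KO peaks had a fold of 6.32 with a log10 FDR of -0.367, and 566 had a fold of 7.22 with a log10 FDR of -0.572. In all, 12.9% of KO peaks sat on 14 such pairs shared by at least 100 peaks each. The share was 26.7% of noncoding-exon peaks and 7.92% of 3' UTR peaks.

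Markers of the labelled tissue were checked first. Of 6 germ-cell markers, Dazl, Sycp3, Sycp1 and Stra8 had 1, 1, 2 and 2 KO peaks, while Ddx4 and Piwil1 had none. Of 4 round-spermatid markers only Tnp1, a transition protein gene, had a peak, at a fold of 7.22, and that peak did not reach an FDR of 1e-05. Acrv1, Prm1 and Prm2 had none in either list. Some somatic markers had peaks too. Sox9, Wt1 and Fshr of Sertoli cells had 3, 1 and 2 KO peaks, while Amh had none. Star and Cyp11a1 of Leydig cells had 1 and 5, while Cyp17a1 and Insl3 had none. Among peritubular, endothelial and immune markers, Vwf had 1 KO peak, and Acta2, Pecam1, Ptprc and Cd68 had none.

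The genomic spans of some KO peaks held entire microRNA precursors, whose sequences are named. Of 1005 mouse hairpins in RefSeq (GRCm38.p6), 16 lay fully inside the genomic span of a KO peak of the same strand. Only peaks with an FDR of 1e-05 or below and a span of at most 3000 bases were used. The 23 listed mature forms of these 16 hairpins had 23 different seeds. The mature forms of the hairpins within the 4 peak spans with the lowest FDR are shown here. Both mature forms that hold ggacu, a common form of the m6A consensus, follow. Capitals mark the seed, bases 2 to 8.
mmu-miR-6897-5p: uGGGGGCAgugucacacgcuguu
mmu-miR-6897-3p: cGGUCUGUguucuucccccag
mmu-miR-1896: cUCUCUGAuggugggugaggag
mmu-miR-7030-5p: uGGGGAGGuggcugugcuaguc
mmu-miR-7030-3p: cUUGCUCUguuaucucuccag
mmu-miR-671-5p: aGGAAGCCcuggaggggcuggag
mmu-miR-671-3p: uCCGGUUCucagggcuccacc
mmu-miR-678: gUCUCGGUgcaaggacuggagg
mmu-miR-6991-5p: uGGAGAACagggacugggccug

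The Mir6897 hairpin (chr1:36144252-36144313, minus strand, GRCm38.p6) lay in a 3' UTR peak of Uggt1 with a fold of 6.24. The Mir7030 hairpin (chr5:115645573-115645632, plus strand) lay in a 3' UTR peak of Rab35, a small GTPase gene, with a fold of 4.77. Mir671 (chr5:24592114-24592211, plus strand) lay in a 3' UTR peak of Chpf2 with a fold of 14.5 and a log10 FDR of -133. Mir1896 (chr13:21445160-21445240, plus strand) is annotated in the list as its own gene, and its peak had a fold of 11.3 over 1773 bases. The peak over Mir678 (chr10:76207326-76207409, minus strand) was the narrowest of the peaks printed here, with 210 bases in the 3' UTR of Prmt2, an arginine methyltransferase gene, and a fold of 5.62. Mir1306 (chr16:18284239-18284317, minus strand) lay in a 5' UTR peak of Dgcr8, which codes for the hairpin-binding partner of Drosha, with a fold of 3.39 and a log10 FDR of -42.7. GGACU, searched on the hairpin strand alone, occurred in 4 of these 16 hairpins and in 8.16% of all 1005. A peak that spans a hairpin does not place the mark inside it, and microRNA levels were not measured. Spans include introns, so a hairpin may also lie in an intron that the span crosses, which was not checked.

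The 5' ends of KO peaks offered a second set of known sequences. Antibodies to m6A also bind m6Am, a related mark on the first transcribed base when that base is an adenosine. In the KO list 1366 of 4010 peaks in 5' UTRs (34.1%, 32.6 to 35.5) began within 10 bases of the annotated gene start. Other classes also had peaks within 10 bases of a gene edge. At the gene end the share was 18.7% of 3' UTR peaks. For noncoding-exon peaks it was 15.4% at the gene start and 19.4% at the gene end. Whether calls stop at annotated gene edges was not tested. By RefSeq's start sites, a 5' UTR peak began within 10 bases of 610 sites. The start sites of 4 genes with high folds among such peaks at an FDR of 1e-05 or below are printed with 15 bases on the upstream side. The first transcribed base is in capitals.
Ahdc1: cccccctggggttccGgatggtgagcagcg
Clk2: acgcaggacgtgcgtGcgtctgtgcgtgcg
Gtpbp2: aggggcgtggcctacAgtgggccacacccc
Tmem114: cagcctgctcgtcttGtgagcccagtcttc

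These windows are from RefSeq's GRCm38.p6 tables: Ahdc1 at chr4:133011491-133011520 (plus strand), Clk2 at chr3:89164780-89164809 (plus), Gtpbp2 at chr17:46161017-46161046 (plus) and Tmem114 at chr16:8425122-8425151 (minus). Their peaks had folds of 157, 96.5, 86.6 and 85.4. The first base was A at 31.5% of the 610 sites (27.9 to 35.3) and G at 46.2% (42.3 to 50.2). At 13034 start sites of KO-list genes without a peak at the site, it was A at 30.3% (29.6 to 31.1) and G at 45.1% (44.2 to 45.9). The intervals overlapped for both bases. GGACT, searched on the transcribed strand in bases 1 to 50, was in 4.26% of the 610 sites and 5.27% of the 13034 others.

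Peaks per gene were few for most genes. The KO peaks fell on 15723 genes, with 2.04 ± 1.51 peaks per gene (mean ± SD over genes) and a median of 2. A single peak was listed for 7461 genes (47.5%, 46.7 to 48.2), 2 peaks for 4209 genes and 3 peaks for 2081 genes. Only 958 genes (6.09%, 5.73 to 6.48) had 5 or more peaks, and these held 18.6% of all peaks assigned to a gene. A count of 10 or more was reached by 53 genes. Another 131 peaks had no gene.

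**Figure D1:**
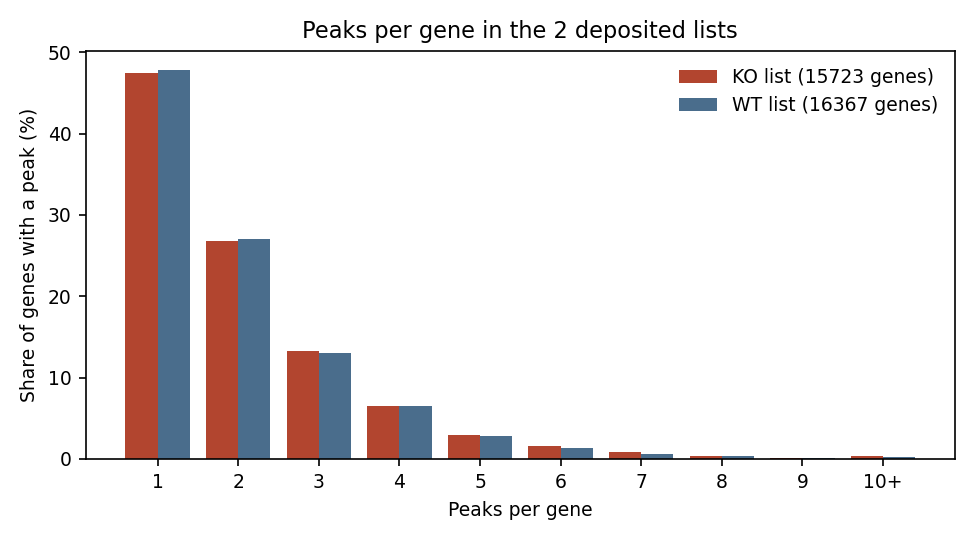
Share of genes with a peak (y axis, %) by the number of peaks per gene (x axis, with 10 or more pooled) in the KO list (red) and the WT list (blue). In the KO list 47.5% of 15723 genes had 1 peak and 26.8% had 2.

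Genes with many peaks were longer and richer in coding-exon peaks. Median genomic length, introns included, was 13.8 kb for genes with 1 peak, 20.9 kb with 2, 26.5 kb with 3 to 4, 47.3 kb with 5 to 9 and 99.1 kb with 10 or more. Across the 15723 genes, which are not independent, Spearman's rho between peaks and genomic length was 0.24. The coding-exon share of peaks was 8.12% in genes with 1 peak, 22.4% in genes with 3 to 4 and 52.8% in genes with 10 or more. The 3' UTR share ran the other way, at 55.7%, 47.2% and 21.6%. Noncoding exons held 26.5% of the peaks in genes with 1 peak and 9.96% in genes with 10 or more. The median fold differed little over these groups, from 5.76 to 6.32, and the share at an FDR of 1e-05 or below was 52.4% in genes with 1 peak and 42.2% in genes with 10 or more.

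**Figure D2:**
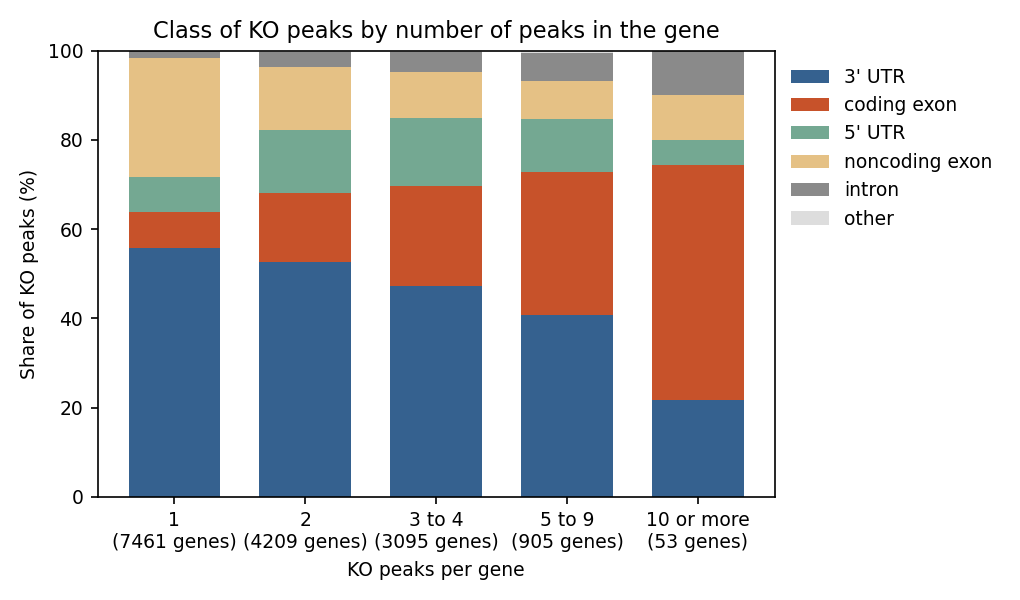
Share of KO peaks in each annotation class (y axis, %) for genes grouped by their number of KO peaks (x axis). Coding exons held 8.12% of peaks in genes with 1 peak and 52.8% in genes with 10 or more.

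For Galnt2l and Pcdha6 the positions of the peaks bear on the count. Galnt2l led the list with 33 KO peaks, against 27 WT peaks, and all 33 were intronic, from 1 transcript. Its gene model spans 4435 kb of chromosome 8 and ends at the same base as Galnt2 in RefSeq (124345722). Of the 33 peaks, 19 lay over another RefSeq gene of the same strand, 15 of them over a long noncoding RNA. A further 11 lay over RefSeq genes of the other or an unlisted strand, and 3 over none. Pcdha6, a clustered protocadherin gene, had 14 KO peaks that all overlapped and formed 1 region when joined. Of these, 12 had the same fold of 11.7, and none reached an FDR of 1e-05. The WT list held none for Pcdha6. Protocadherin alpha genes share their 3' exons, so these peaks cannot be given to 1 gene.

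Kcnq1ot1, the long noncoding RNA of an imprinted locus, came next with 30 KO peaks (WT 22). Its 30 peaks did not overlap, and they covered a window of 79.1 kb within a gene of 93.1 kb. Their folds ran from 2.19 to 27.1, and 9 had an FDR of 1e-05 or below. Ahnak followed with 25, Pclo with 23, and Dst and Fat4 with 17 each. Stard9, a kinesin-family gene, had 16, of which 14 were annotated to its 3' UTR and 2 to introns, and 11 reached an FDR of 1e-05. Of the 20 genes with most peaks, 3 had clone-type names.

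Most genes carried peaks of only 1 annotation class. One value of the annotation was listed for 10620 genes (67.5%, 66.8 to 68.3), 2 for 4072, 3 for 961, 4 for 69 and 5 for 1. Among the 8262 genes with 2 or more peaks, 3159 (38.2%, 37.2 to 39.3) had all of them in the same class. The most frequent patterns were 3' UTR alone (5953 genes), noncoding exon alone (2979), 3' UTR with coding exon (1806) and 3' UTR with 5' UTR (1532). Coding exon alone was the pattern of 871 genes and 5' UTR alone of 658. The combination of 5' UTR, coding exon and 3' UTR, with no other class, was found in 663 genes. A 3' UTR peak was present in 10670 genes (67.9%), a coding-exon peak in 3873 and a 5' UTR peak in 3386.

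Where a gene had peaks in several classes, the 3' UTR held the highest fold most often, but not in most genes with all 3 classes. Each class entered with its highest fold in the gene, so a class with more peaks there had more chances. Over single KO peaks the median fold was 5.86 in 3' UTRs, 5.64 in coding exons and 6.25 in 5' UTRs. Among 729 KO-list genes with peaks in the 5' UTR, coding exons and 3' UTR, the 3' UTR held the highest fold in 42.0% (38.4 to 45.6), the 5' UTR in 30.6% and coding exons in 26.8%. Median highest folds in these genes were 7.69 for the 3' UTR, 6.62 for the 5' UTR and 6.43 for coding exons. Among 1946 genes with coding-exon and 3' UTR peaks but none in the 5' UTR, coding exons held the highest fold in 41.4% (39.3 to 43.6). In the WT list the share was 36.3% (34.2 to 38.5) of 1892 such genes. Genes with all 3 classes did not show this gap. Among 695 such genes of the WT list, the 3' UTR held the highest fold in 42.3% and coding exons in 24.75%. The KO and WT intervals overlapped for both.

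Genes with the most classes were mixtures of strong and weak peaks. Chaf1a, a subunit of the chromatin assembly factor that loads histones behind replication forks, was the only gene with 5 values. One of them was a peak with no class, so it had 4 named classes. Its 5' UTR peak had a fold of 10.3 with a log10 FDR of -180, a 3' UTR peak had a fold of 7.19 with a log10 FDR of -156, and its coding-exon peak had a fold of 2.77. Its intron peak had a fold of 2.13 and a log10 FDR of -1.17. Tulp4 had 12 peaks in 4 classes, led by a 3' UTR peak with a fold of 77.6 and a log10 FDR of -53.3. Hivep3, a zinc-finger transcription factor gene, had 13 in 4 classes, with 9 in coding exons. In Nbea, a vesicle-traffic gene, 2 coding-exon peaks had folds of 8.66 and 9.31, and 4 of the 5 intron peaks had a log10 FDR above -0.8. In Wdr25, 2 of the 4 intron peaks had folds of 13.5 and 26.2.

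Coding exons held 6278 KO peaks in 3873 genes, 24.6% of the 15723 genes with a peak. Of the 3873 genes, 2590 (66.9%, 65.4 to 68.3) had 1 such peak, 527 had 3 or more and 133 had 5 or more. Those 133 genes held 14.2% of the coding-exon peaks. A 3' UTR peak accompanied the coding-exon peak in 69.1% (67.6 to 70.5). The number of coding-exon peaks was loosely related to genomic gene length, with a Spearman's rho of 0.16 across the 3873 genes.

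The 12 named genes with the most coding-exon peaks mostly code for very large proteins. Ahnak, which codes for a giant scaffold protein, had 22 within 16.7 kb of its locus on chromosome 19 (gene at 8989284 to 9076914, plus strand). Their folds ran from 1.69 to 12, with a median of 2.38, and 11 reached an FDR of 1e-05. The highest was at 9013730 to 9015109 with a log10 FDR of -176. Ahnak therefore had the most coding-exon peaks but the lowest median fold of the 12 genes. Ahnak2, its relative, had 11 with folds from 2.38 to 11.7, and none reached an FDR of 1e-05.

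Pclo and Bsn, which code for giant presynaptic scaffold proteins, had 21 and 13 coding-exon peaks. The Pclo peaks had a median fold of 6.92, a highest fold of 25.3, and 7 of 21 at an FDR of 1e-05 or below. Its 23 peaks of all classes became 14 when peaks within 100 bases were joined. The Bsn peaks had a median fold of 8.12, the highest of the 12 genes, yet none reached an FDR of 1e-05. Unc13b, a synaptic-vesicle priming gene, had 11, of which 6 reached it.

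Several of the 12 are cytoskeletal genes. Dst and Macf1, which code for spectraplakins that link actin and microtubules, had 14 and 11 coding-exon peaks, with 4 and 9 at an FDR of 1e-05 or below. The best Macf1 peak had a fold of 38.8 and a log10 FDR of -9.97. Ttn, which codes for the giant muscle protein titin, had 16 across 237 kb, with a median fold of 6.62. Only 2 of them reached an FDR of 1e-05. Dnhd1, which codes for a dynein heavy chain domain protein, had 12 peaks, all in coding exons, and 5 reached that FDR. Alms1, a centrosome and basal-body gene, had 11, of which 9 reached it, and 1 of these spanned 85669700 to 85694945 on chromosome 6 with a fold of 9.72 and an FDR below the scale of the file.

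The other 2 genes code for a cell-surface and a nuclear protein. Fat4, a giant atypical cadherin gene, had 16 coding-exon peaks with folds from 2.89 to 26.2, and 3 reached an FDR of 1e-05. Zfhx3, a zinc-finger homeobox transcription factor gene, had 10 with folds from 2.02 to 40.6, and 4 reached it. Of the 12 genes, Alms1 and Macf1 had the largest share of coding-exon peaks at that FDR, 9 of 11 each, and Bsn and Ahnak2 had none.

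**Figure D3:**
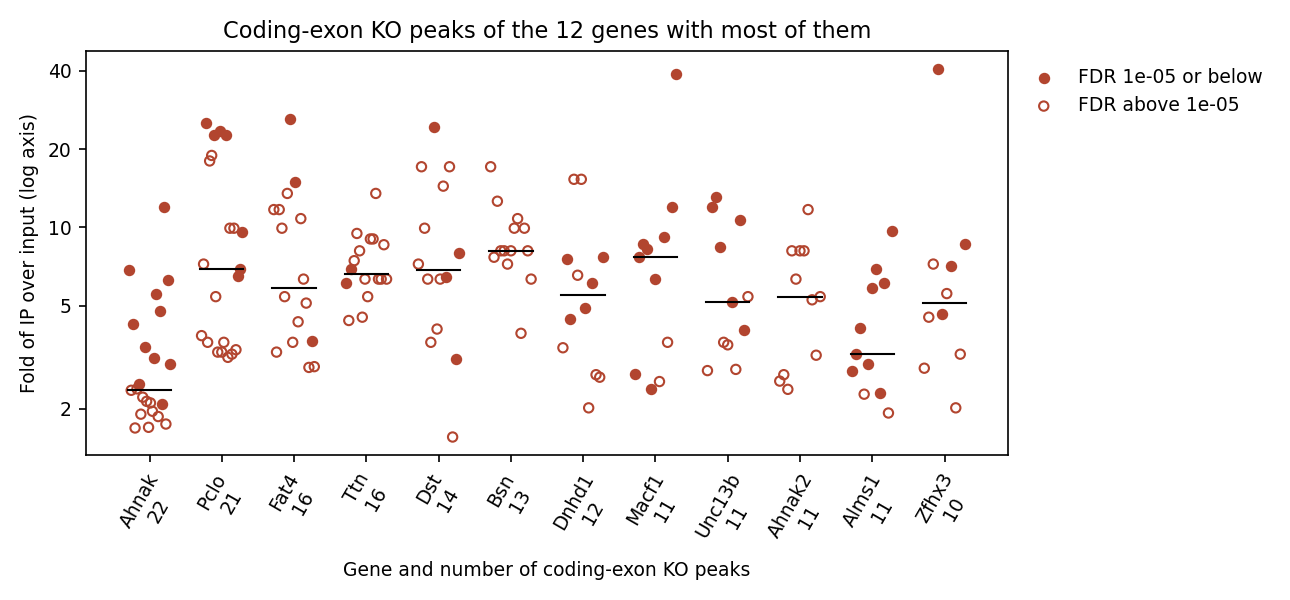
Fold of IP over input (y axis, log scale) of each coding-exon KO peak in the 12 genes with most of them (x axis, with their number), in genomic order within a gene. Filled points have an FDR of 1e-05 or below, open points a higher one, and black lines are medians: 2.38 in Ahnak and 8.12 in Bsn.

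Peak spans in the files run from first to last base on the genome and include introns. The median KO span was 389 bases (386 to 390). It was 480 bases (451 to 508) in coding exons, 390 (390 to 411) in 3' UTRs, 361 (354 to 390) in 5' UTRs, 351 (330 to 358) in noncoding exons and 209 (181 to 211) in introns. The upper tails differed more than the medians. The 90th percentile was 9894 bases in 5' UTRs, 4864 in coding exons and 2493 in 3' UTRs. Spans above 10000 bases made up 9.90% (9.01 to 10.9) of 5' UTR peaks, 5.07% (4.55 to 5.64) of coding-exon peaks and 2.24% (2.02 to 2.48) of 3' UTR peaks. In introns they made up 0.858%. Over the whole list 1257 peaks exceeded 10000 bases and 42 exceeded 100000.

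**Figure D4:**
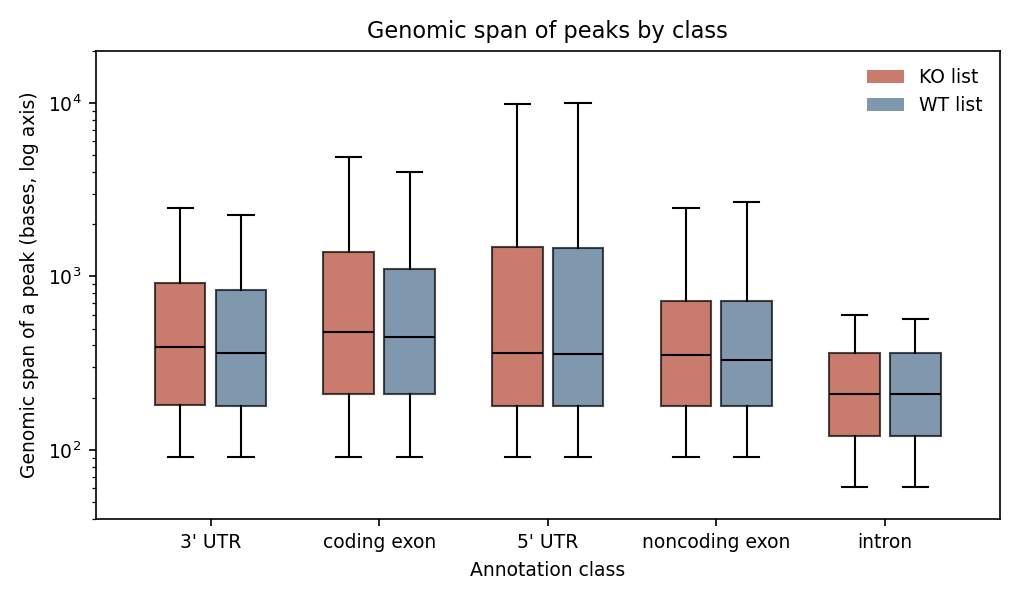
Genomic span of peaks (y axis, bases, log scale) by annotation class (x axis) in the KO list (red, left) and the WT list (blue, right). Boxes are quartiles with the median, and whiskers reach the 10th and 90th percentiles, which for KO 5' UTR peaks is 9894 bases.

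In 5' UTRs the longest spans were those of Schip1 (439 kb, fold 9.02, log10 FDR -1.71), Tshz2, Nkain2, Hecw2 and Naaladl2. The span of Tshz2, a zinc-finger transcription factor gene, covered 251 kb at a fold of 22.4 and a log10 FDR of -152, while that of Nkain2 covered 248 kb at a log10 FDR of -0.367. In coding exons long spans were in Tmem132d (284 kb), Adgrb3 (267 kb), Ctnna3 (236 kb) and Pebp4 (197 kb). Of these 4, the peak of Ctnna3, an alpha-catenin gene, reached an FDR of 1e-05. In 3' UTRs the spans of Arl15 (188 kb), Zfp644 (139 kb), Tmem178b (136 kb) and Cdkal1 (131 kb) reached it, and that of Lrrtm3 (158 kb) did not. The Zfp644 span was longer than the annotated gene of 80.5 kb. For such spans the methylated stretch within them is not resolved.

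Among peaks with a named gene, the highest folds lay outside coding exons. Dhx9, an RNA helicase gene, had a 3' UTR peak with a fold of 1090. Ninl, a centrosome gene, Syncrip, an RNA-binding protein gene, and Rrbp1, a ribosome-binding membrane protein gene, had 5' UTR peaks with folds of 854, 640 and 569. Zxda, a zinc-finger gene on the X chromosome, had a noncoding-exon peak with a fold of 525. The highest fold among KO peaks classed as intergenic was 667. The highest fold in a coding exon was 120. In the WT list it was 978, above the highest in 5' UTRs (564) and below that in 3' UTRs (1350). Medians were close between classes: 5.86 (5.79 to 6.02) in 3' UTRs, 5.64 (5.41 to 5.86) in coding exons, 6.25 (5.89 to 6.32) in 5' UTRs and 7.22 (6.96 to 7.22) in noncoding exons. FDR ranked the classes differently. An FDR of 1e-05 or below was listed for 63.2% of 3' UTR peaks (62.5 to 64.0), 53.9% of coding-exon peaks, 45.2% of 5' UTR peaks, 28.6% of noncoding-exon peaks and 20.2% of intron peaks.

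For gene groups, the share of members with a KO peak is set beside 57.2%, the share of all 21900 RefSeq protein-coding genes with one. Those 12528 genes had a mean of 2.15 peaks, a median of 2, and a coding-exon peak in 30.3% (29.4 to 31.1). The groups are descriptions, without tests, and members with long or well-expressed mRNAs have more room and more reads for a peak.

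**Figure D5:**
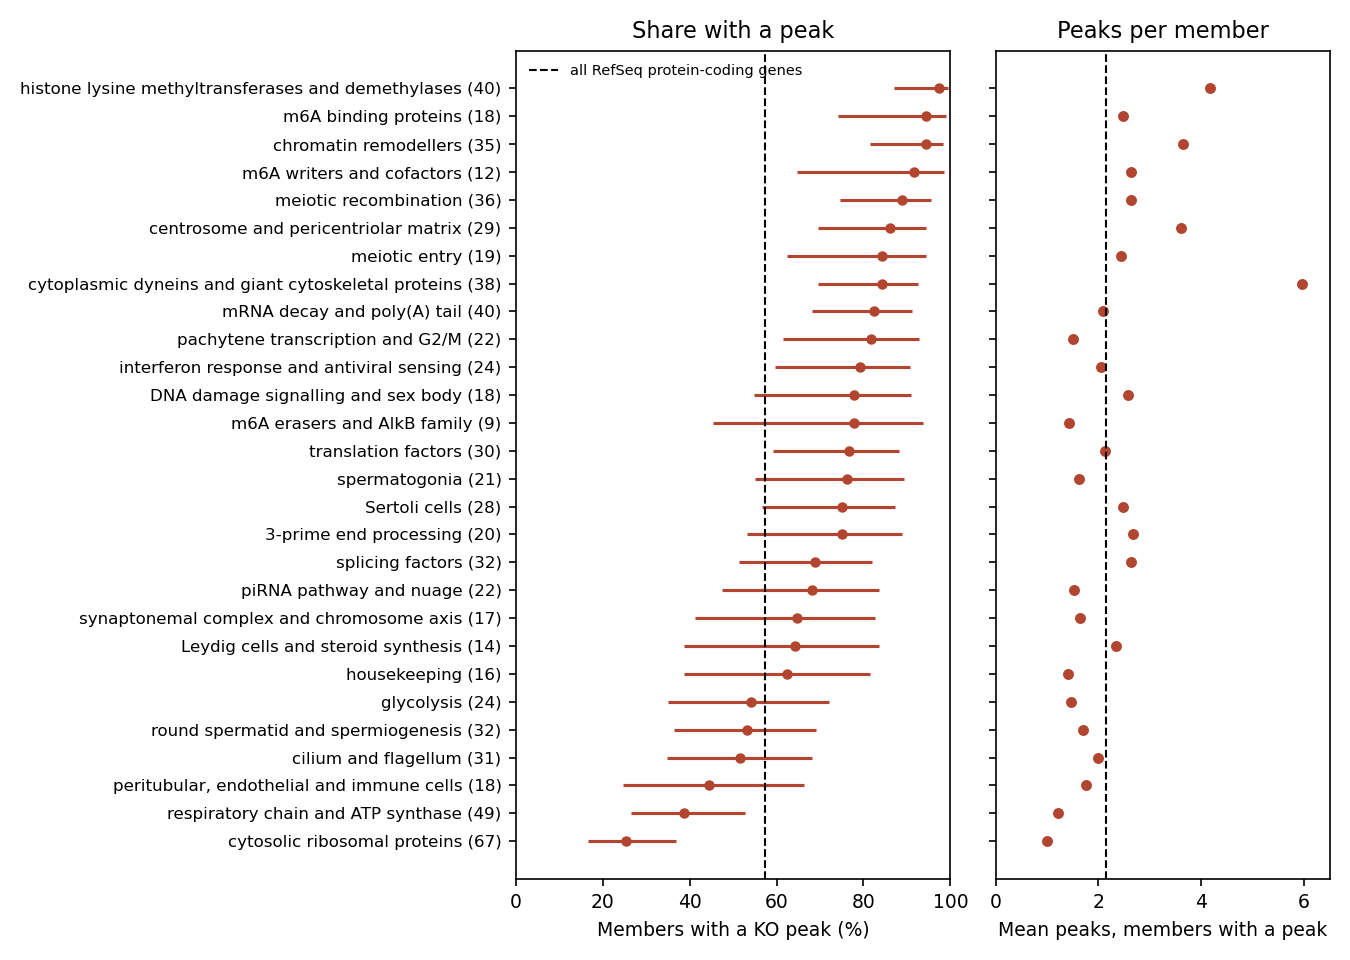
Share of list members with a KO peak (left, %, with Wilson 95% intervals) and mean number of peaks in members with a peak (right). Dashed lines mark all RefSeq protein-coding genes at 57.2% and 2.15 peaks, and list sizes are in brackets.

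Most genes of the m6A machinery had a KO peak. Of 12 writers and cofactors 11 had one (91.7%, 64.6 to 98.5), all 11 with at least 1 in the 3' UTR. Rbm15 and Zc3h13, which guide the writer complex, had 4 each, and Rbm15b had 3. Mettl3, the catalytic subunit, had none in either list. Of 9 erasers and AlkB relatives 7 had a KO peak (77.8%, 45.3 to 93.7), an interval that includes the 57.2% of all protein-coding genes. Alkbh7, like Alkbh5, had none. Fto, the other m6A eraser, had 2, of which the coding-exon peak had a fold of 7.57 and a log10 FDR of -164. Of 18 m6A binding proteins 17 had a KO peak. Ythdc1, the nuclear reader, had 8 (WT 5), of which 6 were in coding exons, with the best at a fold of 13.2. Some of its spans overlap each other. Hnrnpa2b1 had 5 and Prrc2c 4. Hnrnpc had none.

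Histone lysine methyltransferases and demethylases had the highest share with a peak among the 28 groups. Of 40 such genes 39 had a KO peak (97.5%, 87.1 to 99.6), with a median of 4 peaks, and 28 of the 39 had a coding-exon peak (71.8%, 56.2 to 83.5). Kmt2d had 10, all at an FDR of 1e-05 or below, with 7 in coding exons. Kmt2a and Kmt2c had 8 each, and the WT list held 13 and 8. Kdm4c had none. Among 35 chromatin remodellers 33 had a KO peak, with a median of 3. Bptf, the largest subunit of the NURF remodeller, had 10, against 3 in the WT list, and Chd9 and Arid1b had 9 and 7. Of these KO peaks, 4, 5 and 5 had an FDR of 1e-05 or below. Smarca5 and Smarcb1 had none.

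Of 29 centrosome genes 25 had a KO peak, with a median of 3, and 18 of the 25 had 1 or more in coding exons. Cep350 had 9 and Tubgcp6 had 7. Of 38 cytoplasmic dynein and giant cytoskeletal genes 32 had a KO peak, and 27 of the 32 had a coding-exon peak (84.4%, 68.2 to 93.1). Their mean of 5.97 peaks was the highest of the 28 groups, with a median of 4, and Ahnak, Dst and Ttn had the most. Neb, Utrn and Dmd, on the same list, had no KO peak.

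Shares in the meiotic groups varied, but their intervals overlapped. Of 36 meiotic recombination genes 32 had a KO peak (88.9%, 74.7 to 95.6), with a median of 2. Brca2, a gene of recombinational DNA repair, had 11, all at an FDR of 1e-05 or below and 9 in coding exons. Tex15, a germ-cell gene needed for meiotic break repair, had 7, with a run of 6 coding-exon peaks on chromosome 8 from 33570676 to 33576310 and folds from 2.07 to 9.96. Fancm, a helicase gene, had 6, all in the 3' UTR. Iho1, Hsf2bp, Hfm1 and Tex11 had none. Of 17 synaptonemal complex and axis genes 11 had a KO peak (64.7%, 41.3 to 82.7), with at most 3 peaks. That interval includes the 57.2% of all protein-coding genes. At an FDR of 1e-05 or below the share of these genes stayed at 64.7%, while that of recombination genes was 69.4%. Smc1a, a cohesin gene, had 3, and Sycp2 had 2. Tex12, Hormad1, Hormad2 and Rad21l had none. Meiotic entry genes had a peak in 16 of 19, with Mga, a repressor of meiotic genes, at 6. Genes of pachytene transcription and the G2/M transition had one in 18 of 22, with at most 3.

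DNA damage signalling genes had a KO peak in 14 of 18, with Brca1 at 5 and Mdc1, a sex-body protein gene, at 4. Chek1, Chek2, Scml2 and Hus1 had none. piRNA pathway genes had one in 15 of 22, with Exd1, Tdrd6 and Tdrkh at 3 each, while Piwil1, Piwil2, Ddx4 and Mael had none. Spermatogonial genes had one in 16 of 21, led by Zbtb16 and Gfra1 at 3. Round-spermatid genes had one in 17 of 32 (53.1%, 36.4 to 69.1), of which 8 had a peak at an FDR of 1e-05 or below. Akap3, a fibrous-sheath gene, had 4, all in coding exons. Of 31 cilium and flagellum genes 16 had a KO peak (51.6%, 34.8 to 68.0), an interval that includes the 57.2% of all protein-coding genes. A WT peak was listed for 22 of them. Respiratory chain genes also had fewer members with a peak in KO (19, WT 25), while meiotic recombination genes had more (32, WT 29). No such difference was tested. Among the 16 cilium and flagellum genes with a KO peak, 11 had a coding-exon peak. Dnah10, an axonemal dynein gene, led them with 6 (WT 2 peaks in all). Of the 6 Dnah10 peaks, 2 had an FDR of 1e-05 or below.

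RNA-handling groups had shares above that of all protein-coding genes, although the intervals of splicing and 3' end processing reached below it. A KO peak was listed for 33 of 40 mRNA decay genes, 15 of 20 genes of 3' end processing, 22 of 32 splicing factor genes and 23 of 30 translation factor genes. Edc3, a decapping cofactor gene, had 6. Pcf11, a termination factor gene, had 7, all at an FDR of 1e-05 or below and 5 in coding exons. Son, which codes for a nuclear speckle protein, also had 7. Genes of the interferon response had a KO peak in 19 of 24, while Oas1a, Oas2, Oas3 and Mx1 had none.

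Somatic groups were represented. Sertoli-cell genes had a KO peak in 21 of 28, with Tjp1, a tight-junction gene, at 5. Amh had none. Leydig-cell genes had one in 9 of 14. Cyp11a1, which codes for the enzyme that starts steroid synthesis, had 5, among them an intron peak with a fold of 83 and a log10 FDR of -32.4. Lhcgr, the luteinizing hormone receptor gene, had 5 in its 3' UTR, all at an FDR of 1e-05 or below. Peritubular, endothelial and immune genes had one in 8 of 18.

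Ribosomal protein and respiratory chain genes had the lowest shares of the 28 groups. Of 67 cytosolic ribosomal protein genes 17 had a KO peak (25.4%, 16.5 to 36.9). Each of the 17 had exactly 1, and none was in a coding exon, where 0 of 17 allows a share of up to 17.6% (3 counts of the total, the limit used for every count of 0). In 11 of the 17 the peak reached an FDR of 1e-05. Rps7, Rpl13a and Rpl34 had the highest folds, 9.92, 8.12 and 8.12, and are among the 6 that did not reach it. Respiratory chain and ATP synthase genes had a peak in 19 of 49 (38.8%, 26.4 to 52.8), with at most 2. Glycolysis genes had one in 13 of 24, led by Hk2, a hexokinase gene, at 4. Other housekeeping genes had one in 10 of 16 (62.5%, 38.6 to 81.5).

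The deposited KEGG column covered 4678 of the KO-list genes (29.8%), and the GO column gave terms for 11164 (71.0%). Because these columns list terms only for genes with a peak, the values describe peaks per gene within a term. Genes with any KEGG pathway had a mean of 2.02 peaks and a coding-exon peak in 26.9% (25.7 to 28.2). Lysine degradation, a pathway that in KEGG holds the histone lysine methyltransferases, had a mean of 3.29 peaks over 48 genes, and 47.9% (34.5 to 61.7) had a coding-exon peak. Kmt2d and Kmt2a had its most peaks, at 10 and 8. Herpes simplex virus 1 infection, which in KEGG holds many zinc-finger genes, had 333 genes, a mean of 2.41 and a coding-exon peak in 48.0% (42.7 to 53.4). Pou2f2, with 10, and Zfp235, with 7, led it. Fanconi anemia and homologous recombination pathways had means of 2.56 over 48 genes and 2.36 over 33 genes, both led by Brca2.

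At the low end, the KEGG ribosome pathway had a mean of 1.39 peaks over 57 genes, with a coding-exon peak in 3.51% (0.968 to 11.9). Its top gene was Mrpl33, a mitochondrial ribosomal protein gene, with 7. Proteasome genes had a mean of 1.38 over 24 genes and no coding-exon peak, where 3 counts of the total set a limit of 12.5%. Steroid biosynthesis had 14 genes, none with a coding-exon peak, and the limit by the same rule is 21.4%. Oxidative phosphorylation had a mean of 1.35 over 57 genes, with a coding-exon peak in 24.6% (15.2 to 37.1). Spliceosome genes had 1.71 over 92, with a coding-exon peak in 14.1%.

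The GO terms gave a similar order. Genes with any GO term had a mean of 2.14 peaks and a coding-exon peak in 30.5% (29.7 to 31.4). Homophilic cell adhesion had 107 genes with a mean of 3.25, and 62.6% (53.2 to 71.2) had a coding-exon peak. Among its genes with a peak at an FDR of 1e-05 or below, the mean of such peaks was 1.83. Its top genes were Fat4 and Pcdha6, whose overlapping peaks are described above. Nucleic acid binding covered 1019 genes with a mean of 2.66 and a coding-exon peak in 47.0% (44.0 to 50.1), led by Zfhx3 and Hivep3. Microtubule motor activity had a mean of 2.68 over 57 genes, led by Stard9 and Dnhd1, and histone methyltransferase activity had 3.80 over 10 genes. Structural constituent of ribosome had 1.42 over 80 genes, with a coding-exon peak in 3.75% (1.28 to 10.4), and mitochondrial inner membrane had 1.65 over 237. Among reproductive terms, spermatogenesis had 252 genes with a mean of 2.04 and a coding-exon peak in 31.7% (26.3 to 37.7), near that of all GO genes. Meiotic cell cycle had 83 genes with a mean of 1.77, and synaptonemal complex 27 with a mean of 1.63. Sperm flagellum had a mean of 1.76 over 33 genes but a coding-exon peak in 48.5% (32.5 to 64.8).

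Peak numbers per gene were set beside those of the WT list. Of 17805 genes with a peak in either list, 4523 had more in KO (25.4%), 8074 had the same number and 5208 had fewer in KO (29.2%). For coding-exon peaks, 1468 of 4654 genes had more in KO, 1957 the same and 1229 fewer. Large excesses in KO were in Ttn (16 in KO, 7 in WT), Dnhd1 (12 and 5), Ahnak (22 and 17), Fat4 (16 and 11), Pkdrej and Cenpf (7 and 2 each), Dnah10 (6 and 1), Ppp1r3f (5 and 0) and Adgrv1 (5 and 0). Over all classes Ppp1r3f had 7 KO and 6 WT peaks, so its coding-exon difference was mostly one of class. Cenpf, a kinetochore gene, had 6 KO peaks at an FDR of 1e-05 or below. Large deficits in KO were in Zfhx2 (9 in KO, 15 in WT), Rp1 (0 and 5), Fsip2 (3 and 8) and Zfhx4 (9 and 14). With 1 list per genotype and no test, these counts compare 2 sets of calls.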

How the data were processed

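MeRIP-seq was run on poly(A) RNA of testes, with 12 libraries in 4 groups of 3, read from the sample titles. The build was GRCm38, and the tools named, with no version or role, were HISAT2, StringTie, HOMER, fastp and FastQC, per the submitters' processing notes. The peak caller, and whether replicates were pooled, are not given in the sources used here. The authors deposited, per genotype, a peak list with a fold enrichment per peak (a linear ratio) and, as a score, the log10 of the p-value and FDR of each peak. These values were used only to describe, rank or filter peaks. Starts are counted from 0 and were raised by 1 for printing, and deposited lengths are 1 base too long and were recomputed. Genes were keyed by gene ID and classes by the authors' annotation column.

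Counts, Wilson intervals and merging were computed with Python 3.11.15, pandas 2.3.3 and scipy 1.17.1, and tested on simulated data. Of 15713 symbols, 14449 matched RefSeq. The 28 gene lists (761 memberships, with synonyms joined through RefSeq) and 105 matched KEGG and GO terms were chosen with earlier results of these data known, as were the members. GO text of 1444 KO genes was not analysed here. Named genes are those with most peaks (10), most coding-exon peaks (12), most classes (5), the 5 longest spans per class and the 5 highest folds, and per list the 3 members with most peaks and up to 4 without one, leaving out clone-type names. Genes shown with sequences, those compared with WT and the mitochondrial and chromosome values were chosen after their values were seen. Some genes that the rule names are not reported here.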

Additional observations from a re-analysis of the deposited data

How the results depend on the processing

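No paired analysis was possible because the lists carry no values per library, and no replicate could be left out. The planned scaling of coding-exon peaks by protein length was not run, since no protein table was used here. Counting overlapping peaks once, and leaving out peaks with no class, were chosen after seeing the data. The mean of 2.04 peaks per gene became 1.92 at an FDR of 0.05 or below, 1.59 at 1e-05, 1.97 at a fold of 2 or more, 1.85 with peaks within 100 bases joined, 2.15 without clone-type names, 2.00 without peaks that overlap one on the opposite strand and 1.99 with overlapping peaks counted once. The share of genes with 2 or more peaks (52.5%) became 49.4%, 38.1%, 50.6%, 48.0%, 57.0%, 50.9% and 51.2% in the same order. The share of genes with 2 or more annotation values (32.5%) became 30.4%, 23.8%, 31.1%, 30.9% and 39.8% under the first 5 of these, and 32.2% without peaks of no class, within its interval. The median span of 389 bases became 448, 657, 419 and 420 under the first 4. Genes with a coding-exon peak numbered 2449 at an FDR of 1e-05 or below, against 3873. Genes with 5 or more of them numbered 42 at that FDR and 81 with peaks within 100 bases joined, against 133. Genes with more peaks in KO numbered 1985 and with fewer 2106 at that FDR, and for coding-exon peaks 754 and 538. Fewer peaks enter at a stricter limit by construction. Keying by symbol left the 6 quantities it was run on within their intervals or within 1.5 times. At an FDR of 1e-05 or below, 24 of 28 gene lists kept their share with a peak within its interval. The other 4 became 66.7% for m6A binding proteins (94.4% with all peaks), 69.4% for meiotic recombination (88.9%), 25.0% for round spermatids (53.1%) and 16.4% for ribosomal proteins (25.4%). Over all 21900 RefSeq protein-coding genes, 9343 had a peak at that FDR, against 12528 with all peaks. Of 8 KEGG and GO means recomputed so, 4 stayed within their interval. The other 4 became 1.68 for Herpes simplex virus 1 infection (2.41), 1.63 for spermatogenesis (2.04), 1.21 for structural constituent of ribosome (1.42) and 1.83 for homophilic cell adhesion (3.25). Unknown depth limits what a missing peak shows.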

Other observations

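On autosomes 58.5% of RefSeq protein-coding genes (57.9 to 59.2, 12097 of 20665) had a KO peak, with a mean of 2.16 peaks in those that did. Single autosomes ran from 48.3% (46.1 to 50.4) on chromosome 7 to 70.1% on chromosome 18. On the X chromosome the share was 43.7% (40.6 to 46.8, 422 of 966), with a mean of 1.90, and its interval overlapped that of chromosome 7. On the Y chromosome 9 of 256 had one. In the WT list the shares were 59.1% on autosomes and 45.4% on the X chromosome. Whether expression from the X chromosome moves with this was not tested.

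The KO list also held 12 peaks on the mitochondrial chromosome, of which 11 were in coding exons. mt-Nd2, a complex I subunit gene, had a peak with a fold of 9.26 over 3914 to 4803 and a log10 FDR of -312. mt-Nd4 had 3 peaks with folds of 6.28, 4.55 and 4.05, and mt-Nd5 had one with a fold of 6.53. mt-Nd6, which lies on the other strand, had a peak with a fold of 7.33 that shares bases with that of mt-Nd5. Counted by gene and not by peak, the nuclear respiratory chain list had a coding-exon peak in 3 of its 19 members with a peak. Whether mitochondrial genes have UTRs in the annotation was not checked, so these shares cannot be compared.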
